A study of Mus musculus with 4 samples.

Results

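A group of macrophages of the mouse renal capsule is described here that carried C1q transcripts but little or none of Lyve1, Fcna and Cx3cr1, the genes that mark the other capsule macrophages in these data. Its members were droplet barcodes with 500 or more unique molecular identifiers (UMIs, each counting 1 captured transcript), 300 or more detected genes and a mitochondrial share no higher than 20%. They had 6 or more UMIs of C1qa, C1qb and C1qc together, no UMI of Cx3cr1, Cd3e or Cd79a, under 3 UMIs of Lyve1 and Fcna together and under 2 of Mki67 and Top2a together. Of 37361 barcodes that passed the quality filter, 1437 met this rule, and they are called Lyve1-low macrophages below. The rule is made of measured counts, so the levels of these 10 genes describe the choice and are no finding.

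The renal capsule is the thin sheath of connective tissue around the kidney. Capsules were taken from untreated young and old mice, cut up, digested with a collagenase blend and DNase, and sequenced as droplet 3' single-cell libraries, with 2 libraries per age. The labels give no strain, sex, age in months or number of animals, so nothing says that the libraries came from separate animals. The spread behind the p-values of the age tests is that among the 4 libraries, which may be technical. Where macrophage classes are compared, it is the spread of class differences within these libraries. The 2 young libraries held 308 and 395 Lyve1-low macrophages and the 2 aged libraries held 245 and 489.

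C1q is the recognition unit of the classical complement pathway, and macrophages are its main source in most tissues. Resident macrophages along vessels and in connective tissue often carry the hyaluronan receptor Lyve1, the folate receptor Folr2 and the phosphatidylserine receptor Timd4. Macrophages renewed from blood monocytes more often carry the chemokine receptor Ccr2 and high levels of MHC class II, which presents peptides to CD4 T cells. Cx3cr1 is the receptor for fractalkine and marks another set of tissue macrophages.

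The libraries held 51180311 to 70925446 UMIs, and 6763 to 11973 barcodes per library passed the filter. Median UMIs per Lyve1-low macrophage were 5182 and 3964 in the young libraries and 6357 and 4759 in the aged libraries, which limits what can be seen of weakly expressed genes in a single cell. Each pair of libraries shared 22 to 40 barcode sequences. The doublet scores of Scrublet placed among the likely doublets 21.1% and 23.8% of members in the young libraries, and 11.02% and 18.6% in the aged ones, against an assumed rate of 5.65% to 9.83% per library.

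The members carried macrophage transcripts well above the level of fibroblast-rich droplets. For detection, cells were thinned to 2000 UMIs, and barcodes with fewer were left out. This left 246 and 248 members in the young and 212 and 418 in the aged libraries. All detection shares at 2000 UMIs given below refer to these members. Adgre1, which encodes the macrophage antigen F4/80, was detected in 52.8%, 39.5%, 57.5% and 47.6% of the members of young replicates 1 and 2 and aged replicates 1 and 2. The same gene was detected in 0.598%, 0.545%, 0.37% and 0.439% of stromal droplets, which are barcodes rich in fibroblast transcripts with no Ptprc and under 6 C1q UMIs. They give a guide to free macrophage RNA, but their limits on Ptprc and C1q leave out droplets with more of it. Fcgr1, the high-affinity IgG receptor, was detected in 23.2%, 19.4%, 26.4% and 32.3% of members and in 0.199%, 0.332%, 0% and 0.22% of stromal droplets, in the same order. Median UMIs before thinning were 3964 to 6357 for all members and 5416 to 8183 for all stromal droplets. Genes listed for other myeloid cells were detected to different degrees. Ly6c2 of classical monocytes was detected in 0%, 0%, 0.472% and 0.957% of members and Flt3 of dendritic cells in 0%, 0.806%, 1.42% and 0.957%. Summed in CPM, the monocyte list, which holds Ccr2, came to 1623 and 1564 in the young and 1613 and 1464 in the aged libraries, and the dendritic cell list to 1356 and 1217 in the young and 1447 and 1553 in the aged libraries. Of the mast cell genes, Mcpt4 stood at 67, 237, 1.14 and 62.1 CPM and Cpa3 at 4, 113, 1.14 and 19.7 CPM, both highest in young replicate 2.

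Clec4n, Pla2g2d, Fcrls and Ms4a7 came with the label as markers of these cells, and only Fcrls, which encodes a macrophage Fc receptor-like protein, was highest here in all libraries. Levels are UMIs scaled to a common total (CPM) in the sum over all cells of a class, scaled by TMM, and are given in the order young replicate 1, young replicate 2, aged replicate 1, aged replicate 2. Fcrls stood at 626, 605, 651 and 583 CPM in Lyve1-low macrophages, at 428, 445, 286 and 258 in the macrophages with 3 or more Lyve1 and Fcna UMIs (Lyve1 Fcna macrophages) and at 474, 531, 456 and 479.6 in those with a Cx3cr1 UMI and under 3 of Lyve1 and Fcna (Cx3cr1 macrophages). Clec4n, which encodes the fungal receptor dectin-2, stood at 44.6, 21.3, 158 and 150.04 CPM in Lyve1-low macrophages, at 38.4, 35.1, 76.4 and 65 in Lyve1 Fcna and at 17.3, 21.2, 92.1 and 79.7 in Cx3cr1 macrophages. It was highest here in 3 of the 4 libraries, and the exception was young replicate 2. The secreted phospholipase gene Pla2g2d stood at 179.5, 144, 688 and 593 CPM here and at 322, 296, 649 and 569.9 in Lyve1 Fcna macrophages, so the young libraries had more of it in the other class. Ms4a7, a membrane protein of the MS4A family, stood at 217, 227, 725 and 547 CPM here and at 331, 337, 661 and 714 in Cx3cr1 macrophages. Only Fcrls therefore set the class apart in every library, while Clec4n did so in both aged libraries and in young replicate 1. The cells are named by their rule. The markers were chosen on these data and get no test.

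Transcripts of fibroblasts and of kidney tubules were present in the members, and more so in the young libraries. The 10 genes of the fibroblast list summed to 10860 and 11793 in the young and 1458 and 2491 in the aged libraries, in CPM, and Col1a1, a chain of collagen I, stood at 835 and 772 CPM in the young and 47.4 and 60.6 in the aged. The 10 genes of the tubule list summed to 4785 and 9100 in the young and 389.8 and 1448 in the aged libraries. Slc34a1, Lrp2, Umod, Slc12a1 and Slc12a3 were each at 0 in at least 1 library. Gpx3 held 1871, 3936, 244 and 509 CPM of these sums, but stromal droplets also held 2319, 2310, 1849 and 1959 CPM of it. In aged replicate 1 Gpx3 and Fxyd2, at 137 CPM, made up nearly all of the sum, and Kap stood at 4.01 CPM. At least 10 UMIs of Col1a1, Col1a2, Col3a1 and Dcn together were found in 20.5% and 35.9% of the members of the young libraries, against 4.49% and 7.36% in the aged ones. Under 2 such UMIs were found in 133 and 125 young and in 199 and 393 aged members, and the main age comparisons below are also given for these 850 cells, called fibroblast-poor. Median mitochondrial shares were 2.71% and 3.59% in the young and 2.34% and 2.12% in the aged members, and mt-Nd1, a mitochondrial transcript, stood at 2230 and 2753 CPM in the young and 1364 and 1285 in the aged libraries. The part of these shifts in the age results was not tested beyond the fibroblast-poor values. The T cell list summed to 79 and 96.2 in the young and 298 and 425 in the aged libraries, and to 35.5, 19.8, 60.1 and 127 CPM without Ccl5, with Trac and Cd8b1 at 0 in at least 1 library. The B and plasma cell list summed to 393 and 382 in the young and 612 and 798 in the aged libraries, with Ms4a1, Jchain, Mzb1, Iglc2 and Ighg2c among the genes at 0 in at least 1. Both lists were higher in the aged libraries.

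**Figure D1:**
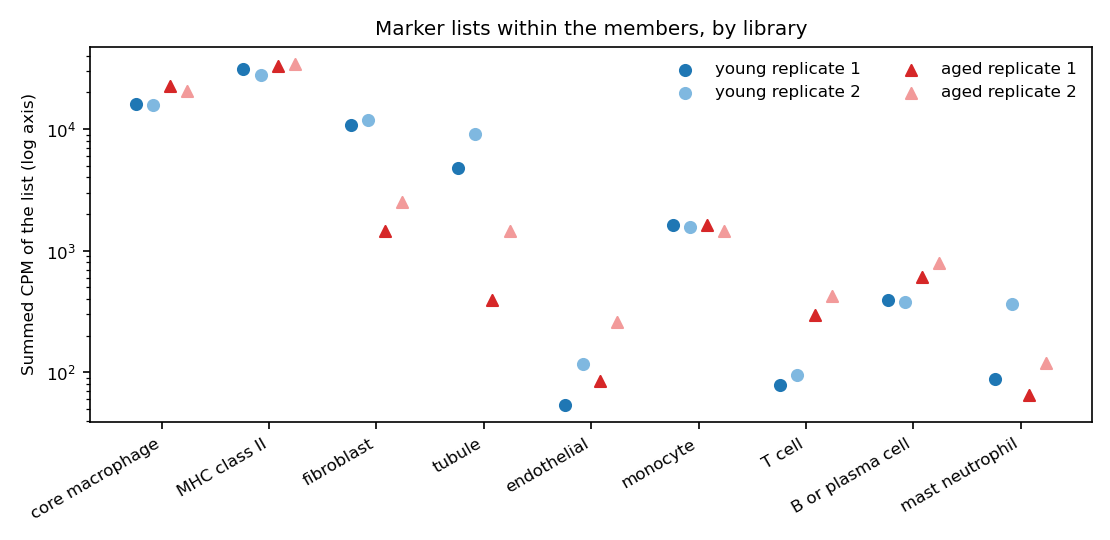
Summed CPM of marker gene lists in Lyve1-low macrophages of each library, on a log axis, with circles for young and triangles for aged libraries and no error bars since each point is 1 library. The fibroblast list lies at 10860 and 11793 CPM in the young and at 1458 and 2491 in the aged libraries, the tubule list falls in the same direction, and the macrophage list lies above both in every library.

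Levels of several genes changed with the counts that the rule uses. Among C1q macrophages without Cx3cr1, Folr2 was higher where more Lyve1 and Fcna was counted. It stood at 303, 299, 365 and 438 CPM in cells with 0 such UMIs and at 789, 904, 982 and 1143 in those with 2, just inside the rule. Cells with 3, just outside it, had 1608, 1140, 1200 and 1355 CPM. Ccr2 ran the other way, with 869, 786, 669 and 443 CPM at 0 UMIs, 215, 122, 58.2 and 65.7 at 2 and 141, 175, 103 and 21.9 at 3, although young replicate 2 and aged replicate 1 had more at 3 than at 2. The members with 0 UMIs of Lyve1 and Fcna made up 47.4% and 50.4% in the young libraries, against 55.1% and 58.3% in the aged ones. On the C1q side, members with exactly 6 UMIs were few, 12, 38, 7 and 18 cells in the 4 libraries, and had 3332, 2675, 7004 and 4933 CPM of H2-Aa, while cells with 5 UMIs had 2201, 3008, 4516 and 4503. With 12 or more C1q UMIs required, 257, 265, 222 and 442 of the 308, 395, 245 and 489 members were left. Members near the limit were thus more frequent in the young libraries. Median C1q UMIs per member were 42.5 and 20 in the young and 69 and 67 in the aged libraries. These values follow from the rule and carry no test.

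**Figure D2:**
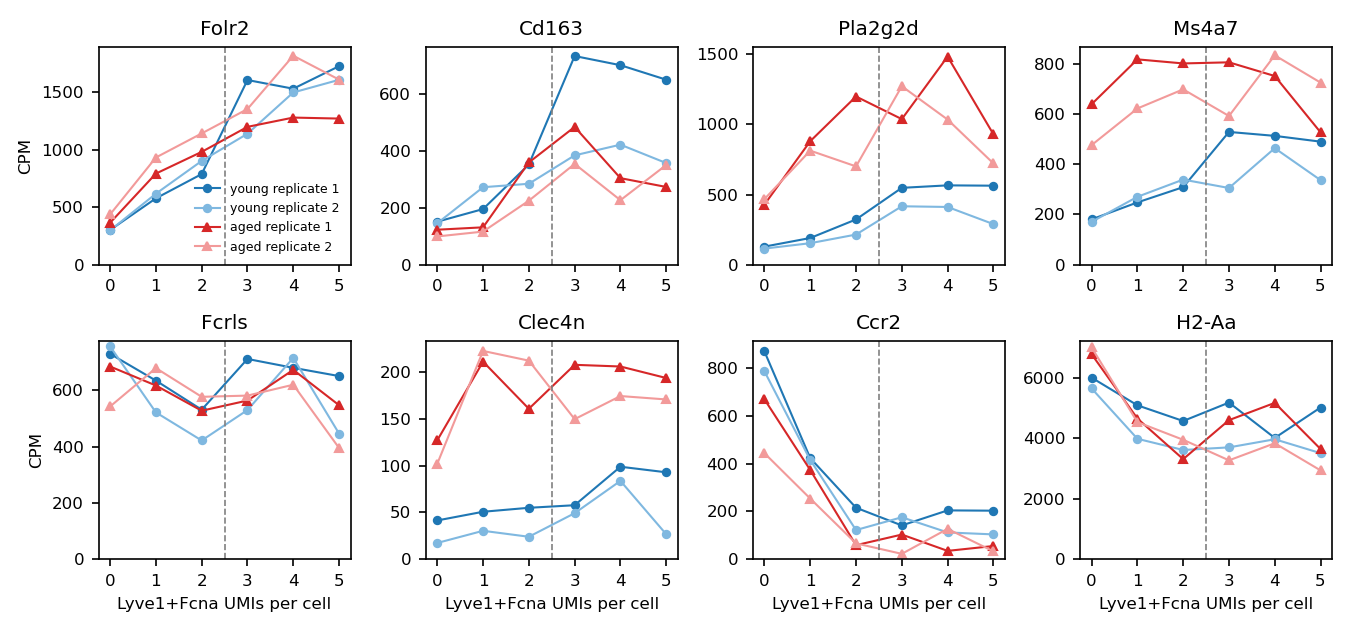
CPM of 8 genes in C1q macrophages without Cx3cr1, summed per library over cells with 0 to 5 UMIs of Lyve1 and Fcna together, with the dashed line at the rule's limit and 1 line per library. In all 4 libraries Folr2 is higher at 3 than at 2 UMIs and Ccr2 is lower at 2 than at 0 UMIs.

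Within the rule the cells were mixed. The values here are from the 246, 248, 212 and 418 members with 2000 UMIs or more, thinned to 2000. Folr2 was detected in 18.8%, 22.5%, 16.7% and 23.1% of the members with a Ccr2 UMI and in 62.7%, 59.5%, 64.1% and 66.1% of those without one. In each of the 4 libraries the Folr2 share was higher in cells lacking a Ccr2 UMI. Pla2g2d went together with Clec4n, and was detected in 68.4%, 46.2%, 78.9% and 74.7% of cells with a Clec4n UMI against 22.5%, 18.7%, 43.2% and 39.6% of the others, although only 19, 13, 57 and 87 cells had a Clec4n UMI. MHC class II, summed over its genes, had a median of 28750, 27500, 22500 and 28750 CPM per cell. Its lowest 5% of cells lay at 500 CPM or less and its highest 5% at 76125 CPM or more in every library, so the members ran from nearly none to very high.

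The members made up a larger share of C1q macrophages in both aged libraries. They were 10.96% (95% Wilson interval 9.86 to 12.2) and 12.6% (11.5 to 13.8) of C1q macrophages in the young libraries. In the aged libraries they were 14.8% (13.2 to 16.6) and 18.6% (17.1 to 20.1). The intervals cover counting error only. The means were 11.8% ± 1.18 (SD, n = 2) and 16.7% ± 2.68 (SD, n = 2), and all aged values lay above all young ones, but the exact two-sided permutation p was 0.333, the smallest that 2 against 2 libraries can give. Because the rule asks for few or no UMIs of 3 genes, the share depends on depth. With every cell of 2000 UMIs or more thinned to 2000 before gating, and the others left out, it was 25.3% and 21.1% in the young and 31.3% and 34.9% in the aged libraries. Among fibroblast-poor C1q macrophages it was 10.3% and 9.53% against 14.9% and 17.8%. As a share of all barcodes kept, the members were 3.43% and 4.10% in the young and 3.62% and 4.08% in the aged libraries, which overlap.

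**Figure D3:**
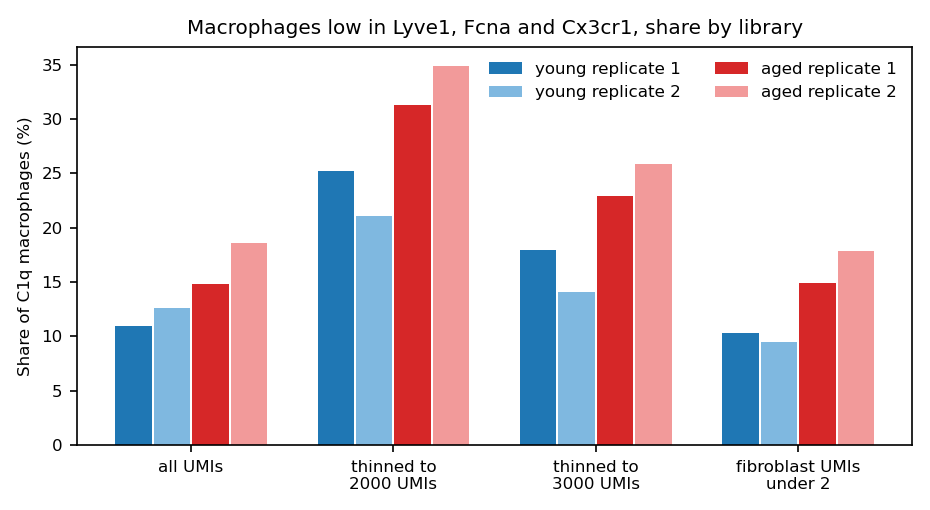
Lyve1-low macrophages as a percentage of C1q macrophages in each library, gated on all UMIs, on counts thinned to 2000 or 3000 UMIs per cell, and among cells with under 2 fibroblast UMIs. Both aged bars stand above both young bars under each of the 4 settings, and the level is highest when cells are thinned to 2000 UMIs, at 21.1% to 34.9%.

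With age, Lyve1-low macrophages gained transcripts of the chemokine Ccl8, of a block of C-type lectins of the Cd209 family and of the lipid receptor Trem2. They lost transcripts of Retnla, Lyz1 and Fn1 and of the chemokines Ccl9 and Ccl6. At an adjusted p under 0.05 in edgeR's quasi-likelihood test, 938 of 10609 genes changed (8.84%), of which 292 rose (2.75%) and 646 fell (6.09%). The libraries of the 2 ages did not overlap for 53.7% of genes, so this alone says little about a gene. In the fibroblast-poor members 84 of 8084 genes changed (1.04%), 38 up (0.47%) and 46 down (0.569%). Of the 292 rising genes, 273 could be tested there, 271 had the same sign and 32 passed again. Of the 646 falling genes, 235 could be tested there, 211 had the same sign and 39 passed again. The fibroblast-poor cells are part of the same members in the same libraries, so these counts are not an independent test. One library weighed heavily on the count, which was 399 without young replicate 2 and 1677 without aged replicate 2.

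Ccl8 showed the highest fold among the rising genes named by the rule. This gene (ENSMUSG00000009185; chromosome 11, 82115185 to 82116799, plus strand, genome build GRCm38) encodes a CC chemokine that draws leukocytes into tissue. It stood at 583 and 691 CPM in the young and at 5387 and 5257 CPM in the aged libraries. Both aged values were several times both young ones, and the replicates of an age lay close together. The log2 fold change was 3.06 (SE 0.11, adjusted p = 0.00017), and it was 3.20 (adjusted p = 2e-06) in the fibroblast-poor members. Ccl8 was detected in 25.2%, 25.4%, 67.9% and 63.6% of members at 2000 UMIs, against 2.04%, 2.06%, 9.26% and 9.57% of stromal droplets. The stromal droplets held 11.9 CPM in the young and 46.8 in the aged libraries, far under the members.

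Other chemokines went both ways. Of 21 tested genes of the chemokine list 4 rose (Ccl8, Ccl5, Cxcl16 and Pf4) and 3 fell (Ccl9, Ccl6 and Ccl17), against 2.75% and 6.09% of all genes. The median log2 fold change was 0.43 against -0.0079 over all genes. The call of Cxcl16 was lost without young replicate 2 (adjusted p = 0.058). Ccl5, a chemokine that T cells also make, stood at 42.9 and 76.5 CPM in the young and 246 and 304 in the aged libraries (log2 fold change 2.21, SE 0.26, adjusted p = 0.0047). In the fibroblast-poor members its log2 fold change was 1.98 (adjusted p = 0.0011). Ccl5 is itself in the T cell list and made up most of that sum in each library. The other 9 genes together, given above, were also higher in the aged libraries, and their part in the result was not tested. Ccl9 stood at 937 and 903 CPM in the young and 455 and 485 in the aged libraries, with no overlap (log2 fold change -0.97, SE 0.10, adjusted p = 0.0035). Ccl6, its neighbour in the CC chemokine cluster, stood at 2002 and 2184 CPM in the young and 1499 and 1385 CPM in the aged libraries (log2 fold change -0.54, adjusted p = 0.019), and without young replicate 2 its adjusted p was 0.087. In the fibroblast-poor members Ccl9 had a log2 fold change of -1.28 (adjusted p = 0.0011) and Ccl6 one of -0.89 (adjusted p = 0.014). The receptor Ccr1, to which such chemokines bind, also fell, from 47.8 and 61.2 to 19.5 and 20.5 CPM (log2 fold change -1.44, SE 0.20, adjusted p = 0.0083), with a log2 fold change of -1.54 (adjusted p = 0.03) in the fibroblast-poor members.

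The Cd209 genes encode C-type lectins of the DC-SIGN family, which bind mannose-rich and fucosylated sugars, and lie side by side on chromosome 8. Cd209f (chromosome 8, 4102787 to 4105835, minus strand) was the most abundant, at 301 and 514 CPM in the young and 1507 and 1504 in the aged libraries (log2 fold change 1.89, SE 0.23, adjusted p = 0.0056). Cd209g (chromosome 8, 4134098 to 4137707, plus strand) stood at 125 and 219 CPM in the young and 568 and 531 CPM in the aged libraries (log2 fold change 1.67, SE 0.24, adjusted p = 0.0093). Both were high in both aged libraries and, among the young, higher in replicate 2. Cd209b (chromosome 8, 3917655 to 3926844, minus strand), which encodes the marginal zone macrophage lectin SIGNR1, stood at 26.6 and 30.1 CPM in the young and 161 and 141 CPM in the aged libraries (log2 fold change 2.41, SE 0.15, adjusted p = 0.00045). Cd209d (chromosome 8, 3871824 to 3878555, minus strand) stood at 23.7 and 45.9 CPM in the young and 159 and 166 CPM in the aged libraries (log2 fold change 2.23, SE 0.26, adjusted p = 0.0046). None of these 4 overlapped between ages, as the naming rule required. In the fibroblast-poor members the log2 fold changes of Cd209f, Cd209g, Cd209b and Cd209d were 1.88, 1.57, 2.32 and 2.503, with adjusted p = 0.00012, 0.001, 0.0042 and 0.00036. Cd209a, best known as the dendritic cell lectin, stood at 23.2 and 27.5 CPM in the young and 68.7 and 109 CPM in the aged libraries (log2 fold change 1.83, adjusted p = 0.0085), and its adjusted p was 0.12 in the fibroblast-poor members. The Cd209 genes are close paralogs, so reads that match more than 1 of them may have been lost or shared in the counting.

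Stretches of 150 bases upstream of the most changed of these genes are printed because these genes moved together, and they show how far their upstream sequences differ. They come from RefSeq on GRCm38.p6, read 5′ to 3′ on the gene's strand, end just before the first base that GENCODE M21 places in an exon, and have capitals where a searched motif matched.
Ccl8 (chr11:82115035-82115184, plus strand): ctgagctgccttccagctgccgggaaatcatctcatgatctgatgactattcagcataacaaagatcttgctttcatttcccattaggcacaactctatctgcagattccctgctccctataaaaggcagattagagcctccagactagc
Cd209b (chr8:3926845-3926994, minus strand): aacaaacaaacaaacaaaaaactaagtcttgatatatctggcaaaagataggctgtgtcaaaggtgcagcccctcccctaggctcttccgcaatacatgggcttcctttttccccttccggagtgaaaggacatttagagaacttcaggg
Cd209d (chr8:3878556-3878705, minus strand): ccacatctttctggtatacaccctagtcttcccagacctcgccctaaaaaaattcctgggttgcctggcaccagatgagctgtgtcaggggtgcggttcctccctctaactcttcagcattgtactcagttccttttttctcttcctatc
Cd209f (chr8:4105836-4105985, minus strand): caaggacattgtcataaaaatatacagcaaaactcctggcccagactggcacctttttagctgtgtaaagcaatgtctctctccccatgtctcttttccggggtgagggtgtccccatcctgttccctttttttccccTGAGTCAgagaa
The motifs searched on both strands were GAGGAAG, the core of PU.1 sites, TGAGTCA, an AP-1 site, and TGCTGAC, a MAF half-site, and they do not overlap one another. Among 32475 distinct 150-base stretches before RefSeq starts, 6.91% held the first, 2.84% the second and 2.46% the third. One match was found in the 4 stretches, the AP-1 site of Cd209f, 83 bases before its RefSeq start. The longest run of identical bases shared by any 2 of the 4 was 10, between Cd209b and Cd209f.

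The other called genes of the C-type lectin list moved less. The counts and median that follow are for the whole list, which holds Cd209a, Cd209f and Cd209g as well. Of its 14 tested genes 8 rose (Clec4a2, Clec4d, Clec10a, Clec12a, Clec2d, Cd209a, Cd209f and Cd209g) and 1 fell (Mgl2), with a median of 0.68. In the fibroblast-poor members 3 rose (Clec10a, Cd209f and Cd209g) and 1 fell (Mgl2). Over all genes 2.75% rose in all members and 0.47% in the fibroblast-poor ones. Without young replicate 2 the adjusted p was 0.2 for Clec4a2, 0.069 for Clec4d and 0.062 for Clec2d, and without young replicate 1 it was 0.066 for Clec4d. Clec10a and Mgl2 are neighbouring paralogs that bind galactose-type sugars, and they went in opposite directions. Clec10a stood at 385 and 315 CPM in the young and 793 and 812 in the aged libraries (log2 fold change 1.20, SE 0.13, adjusted p = 0.0036). Mgl2 stood at 775 and 773 CPM in the young and 534 and 548 CPM in the aged libraries (log2 fold change -0.52, SE 0.10, adjusted p = 0.022). Neither overlapped between the ages. Among fibroblast-poor cells Clec10a had a log2 fold change of 0.88 (adjusted p = 0.029) and Mgl2 one of -0.98 (adjusted p = 0.0042). The call for Mgl2 was lost without young replicate 1 (adjusted p = 0.097) and without young replicate 2 (adjusted p = 0.11).

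**Figure D4:**
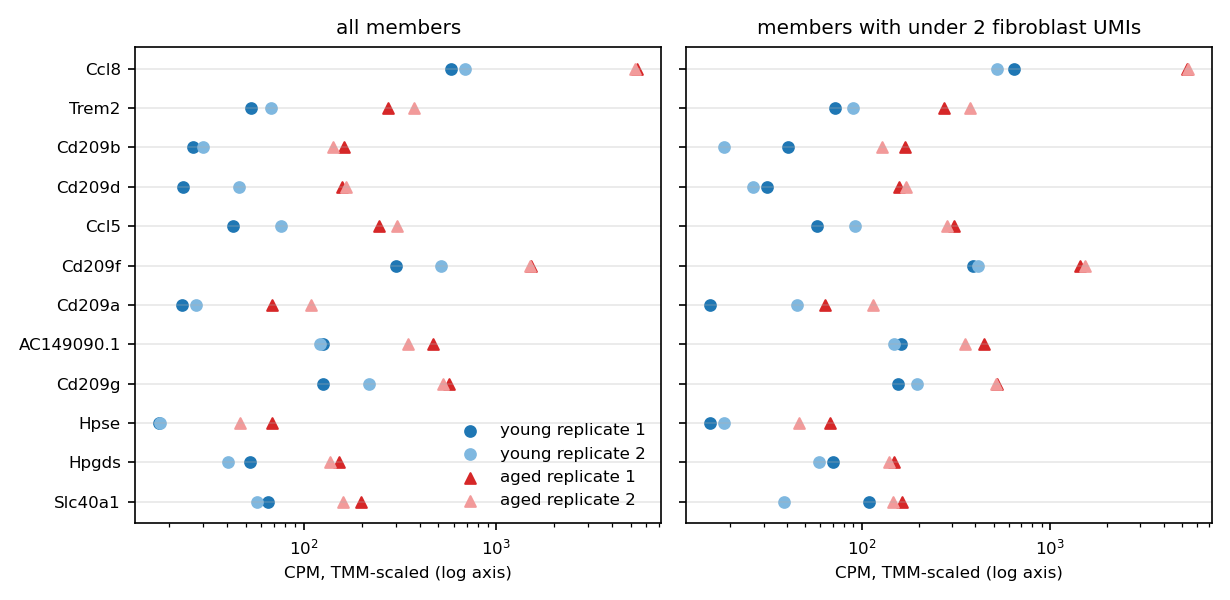
TMM-scaled CPM, on a log axis, of the 12 rising genes named by the rule, in all Lyve1-low macrophages on the left and in those with under 2 fibroblast UMIs on the right, with 1 point per library. Triangles of the aged libraries lie to the right of the young circles for each gene in both panels. The naming rule required this for the left panel. Ccl8 lies at 583 and 691 CPM in the young and at 5387 and 5257 in the aged.

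Some genes of lipid handling and of the lysosome rose with age. They were 7 of 20 tested in the lipid-associated list and 9 of 20 in the lysosome list, against 2.75% of all genes. Ctsb and Ctsd rose in both lists and are counted in each. In the fibroblast-poor members 0.47% of all genes rose. Trem2 (chromosome 17, 48346401 to 48354147, plus strand), a receptor for lipids and lipoproteins on macrophages, stood at 53.2 and 67.3 CPM in the young and 275 and 375 in the aged libraries. The naming rule required that the ages not overlap, and the fold change was 2.43 on the log2 scale (SE 0.20, adjusted p = 0.0014). With fibroblast-rich cells left out it was 2.01 (adjusted p = 0.0011). Of 20 tested genes of the lipid-associated list 7 rose (Trem2, Apoe, Fabp5, Ctsd, Ctsb, Abca1 and Cd63) and 1 fell (Lpl), and in the fibroblast-poor members 5 rose (Trem2, Fabp4, Fabp5, Ctsb and Cd63) and 1 fell (Lpl). Cd63 lost its call without young replicate 1 (adjusted p = 0.1) and Abca1 without young replicate 2 (adjusted p = 0.11). Apoe, the main lipid carrier made by macrophages, stood at 12754 and 11255 CPM in the young and 21781 and 22085 in the aged libraries (log2 fold change 0.87, SE 0.08, adjusted p = 0.0022). Its log2 fold change in the fibroblast-poor members was 0.36 (adjusted p = 0.14). Fabp5, a fatty acid binding protein, stood at 57.6 and 107 CPM in the young and 233 and 188 CPM in the aged libraries (log2 fold change 1.35, adjusted p = 0.025), and in the fibroblast-poor members the log2 fold change was 1.27 (adjusted p = 0.044). Lpl, which frees fatty acids from lipoproteins, went the other way, with 1197 and 1122 CPM in the young and 868 and 833 CPM in the aged libraries (log2 fold change -0.45, adjusted p = 0.035), but with either young library left out it did not pass (adjusted p = 0.16 without replicate 1 and 0.1 without replicate 2). Its log2 fold change in the fibroblast-poor members was -0.65 (adjusted p = 0.041).

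In the lysosome list 9 of 20 genes rose and none fell, with a median of 0.45. Ctsb, a lysosomal cysteine protease, stood at 1730 and 1641 CPM in the young and 3353 and 3008 in the aged libraries (log2 fold change 0.92, SE 0.10, adjusted p = 0.0034). Among fibroblast-poor cells Ctsb was the 1 gene of the list that passed (log2 fold change 0.66, adjusted p = 0.025), and the list's median was 0.26. Core macrophage genes behaved alike. Of 15 genes 9 rose and none fell in all members, with a median of 0.59, whereas none rose and 1 fell in the fibroblast-poor members, with a median of 0.19. Over all genes 2.75% rose in all members. Ctss and Cd68 rose in both this list and the lysosome list and are counted in each. Cd68, for example, stood at 339 and 333 CPM in the young and 610.3 and 578 CPM in the aged libraries and at 453 and 475 against 628 and 594 in the fibroblast-poor ones. Its young values were thus higher, and the gap to the aged ones smaller, without the fibroblast-rich cells.

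Several other genes rose both in all members and in the fibroblast-poor ones. Hpgds, which makes prostaglandin D2, stood at 52.2 and 40.3 CPM in the young and 152 and 136 in the aged libraries (log2 fold change 1.63, SE 0.16, adjusted p = 0.0027). Hpse, the heparan sulfate cleaving enzyme heparanase, stood at 17.7 and 17.9 CPM in the young and 68.1 and 46.7 CPM in the aged libraries (log2 fold change 1.67, SE 0.24, adjusted p = 0.0093). Neither gene overlapped between the ages, as the naming rule required. The adhesion molecule gene Vcam1 stood at 50.8 and 46.4 CPM in the young and 257 and 144 CPM in the aged libraries (log2 fold change 2.03, SE 0.28, adjusted p = 0.0081) and aged replicate 1 had the higher value. Complement C4b stood at 189.7 and 163 CPM in the young and 534 and 491 CPM in the aged libraries (log2 fold change 1.54, adjusted p = 0.0015), but stromal droplets also held 89.3 CPM of it in the young and 603 in the aged libraries. Slamf7, a receptor of the SLAM family, stood at 38.9 and 25.5 CPM in the young and 92.3 and 76.1 in the aged libraries (log2 fold change 1.37, adjusted p = 0.013). Ninj1, which takes part in plasma membrane rupture, stood at 243 and 279.6 and 534 and 614 CPM in the same order (log2 fold change 1.14, adjusted p = 0.0045). In the fibroblast-poor members the adjusted p values of Hpgds, Hpse, Vcam1, C4b, Slamf7 and Ninj1 were 0.014, 0.03, 0.0078, 0.017, 0.013 and 0.016. Vcam1, C4b, Slamf7 and Ninj1 lay outside the naming rule and were chosen after their values were seen. Vcam1 in the aged stromal droplets stood at 136 CPM.

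The iron exporter gene Slc40a1, or ferroportin, stood at 65.5 and 57.1 CPM in the young and 198 and 159.5 in the aged libraries (log2 fold change 1.54, SE 0.16, adjusted p = 0.0033). The aged values were above both young ones, as the naming rule required. In the fibroblast-poor members it stood at 109 and 38.7 CPM in the young and 162 and 146 in the aged libraries and did not pass (adjusted p = 0.19). Of 12 tested iron genes 5 rose (Slc40a1, Ftl1, Tfrc, Trf and Ncoa4), against 2.75% of all genes, and none fell. In the fibroblast-poor members none rose and 1 fell (Cd163). Trf lost its call without young replicate 2 (adjusted p = 0.081). The uncharacterised gene AC149090.1 completed the 12 rising genes of the rule, at 125 and 121 CPM in the young and 470.0 and 346 CPM in the aged libraries (log2 fold change 1.73, adjusted p = 0.0026). All 12 passed in edgeR without any 1 of the 4 libraries. Among fibroblast-poor cells with young replicate 2 also left out, no gene passed in edgeR and 761 had an unadjusted p under 0.05. There Ccl8 had a log2 fold change of 3.07, Trem2 one of 2.19 and Slc40a1 one of 0.50.

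Macrophage genes that fell in both sets of cells included Retnla, Lyz1 and Fn1. These were chosen after their values were seen, because the naming rule returned tubule genes. Retnla, a secreted protein typical of alternatively activated macrophages, stood at 14010 and 13505 CPM in the young and 8847 and 4823 in the aged libraries, and aged replicate 2 was the lowest (log2 fold change -1.01, SE 0.24, adjusted p = 0.047). Lyz1, a lysozyme whose sequence is close to that of Lyz2, stood at 1950 and 1151 CPM in the young and 753 and 456 CPM in the aged libraries (log2 fold change -1.36, SE 0.30, adjusted p = 0.034). Fn1, fibronectin, stood at 1926 and 1542 CPM in the young and 888 and 583 CPM in the aged libraries (log2 fold change -1.24, SE 0.20, adjusted p = 0.015), while stromal droplets held 1996 and 1684 CPM. In none of the 3 did the ages overlap. The fibroblast-poor members gave log2 fold changes of -1.32, -1.78 and -1.30 for these 3 genes (adjusted p = 0.014, 0.00052 and 0.0058). Retnla lost its call without young replicate 1 (adjusted p = 0.097) and without young replicate 2 (adjusted p = 0.081), and Lyz1 without young replicate 1 (adjusted p = 0.095).

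Timd4, a phosphatidylserine receptor of resident macrophages, stood at 44.3 and 38.3 CPM in the young and 25.5 and 20.5 in the aged libraries (log2 fold change -0.86, SE 0.20, adjusted p = 0.041), and passed in the fibroblast-poor members (log2 fold change -1.30, adjusted p = 0.046). In all members its call was lost without young replicate 1, young replicate 2 or aged replicate 2 (adjusted p = 0.17, 0.094 and 0.076). Among transcription factor genes Irf8, Spi1, Zfp36l1 and Atf3 rose, and Irf4 and Bhlhe40 fell. Spi1, which encodes PU.1, Irf4 and Bhlhe40 lost their calls without young replicate 1 (adjusted p = 0.074, 0.17 and 0.2) and without young replicate 2 (adjusted p = 0.099, 0.074 and 0.093). Atf3, a stress-induced factor, stood at 241 and 242 CPM in the young and 508 and 437 CPM in the aged libraries (log2 fold change 0.97, adjusted p = 0.0062), and none of these factors passed in the fibroblast-poor members. Of 14 heat shock genes 4 fell (Hspb1, Hspe1, Hspd1 and Hsph1), against 6.09% of all genes, and none rose. Hspd1, a mitochondrial chaperone, stood at 151 and 194 CPM in the young and 101 and 101 CPM in the aged libraries (log2 fold change -0.77, adjusted p = 0.025; -0.66 and adjusted p = 0.09 in the fibroblast-poor members), and without young replicate 2 none of the 4 passed (adjusted p = 0.094 to 0.17). In Hspb1 the direction itself was not kept, with 0.18 in the fibroblast-poor members.

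All 12 falling genes named by the rule are genes of the proximal tubule of the kidney or of liver-type metabolism. They were Spp2, Pcbd1, Keg1, Slc5a2, Tmem27, Cyp2j5, Acsm2, Pck1, Ugt2b38, Akr1c21, Fbp1 and Lrp2. Slc5a2, the glucose carrier of the early proximal tubule, stood at 47.8 and 99.5 CPM in the young and 0 and 9.66 in the aged libraries (log2 fold change -3.68, SE 0.69, adjusted p = 0.021). Pck1, an enzyme of glucose synthesis, stood at 61.1 and 127 CPM in the young and 5.33 and 12.4 CPM in the aged libraries (log2 fold change -3.30, SE 0.45, adjusted p = 0.0082). The log2 fold changes of the 12 ran from -4.06 (Spp2) to -3.08 (Lrp2), and aged replicate 1 stood at 0 to 5.33 CPM in all 12. None of the 10 that could be tested passed in the fibroblast-poor members. Keg1, Tmem27, Acsm2, Ugt2b38, Akr1c21, Fbp1 and Lrp2 lost their call without young replicate 2 (adjusted p = 0.058, 0.059, 0.1, 0.093, 0.13, 0.098 and 0.093). The tubule list as a whole fell in 5 of 8 tested genes and the fibroblast list in 10 of 10, against 6.09% of all genes. Immunoglobulin transcripts ran the other way. Igkc stood at 2.46 and 13.8 CPM in the young and 153 and 297 in the aged members, at 1.56 and 0 CPM in the young and 155 and 308 CPM in the aged fibroblast-poor ones, and at 2.87 and 3998 CPM in stromal droplets of the 2 ages.

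In the MHC class II list no gene but Ctss, a protease that trims the invariant chain, passed the test for age, out of 13 tested. H2-Aa stood at 5362 and 4799 CPM in the young and 5836 and 6031 in the aged libraries (log2 fold change 0.22, adjusted p = 0.17), and in the fibroblast-poor members the log2 fold change was -0.20 (adjusted p = 0.45). The sign thus turned with the cells used. Neither Ccr2 nor Folr2 passed. Ccr2 stood at 590.3 and 545 CPM in the young and 505 and 344 in the aged libraries (log2 fold change -0.42, adjusted p = 0.21). Folr2 stood at 481 and 517 CPM in the young and 602 and 686 CPM in the aged libraries (log2 fold change 0.37, adjusted p = 0.1). Both passed when aged replicate 1 was left out (adjusted p = 0.00024 and 0.015), a fit in which the single aged library is assumed to vary like the young ones. The haemoglobin-haptoglobin receptor gene Cd163 stood at 205 and 209 CPM in the young and 170.5 and 125 CPM in the aged libraries (adjusted p = 0.12), and it passed in the fibroblast-poor members (log2 fold change -0.997, adjusted p = 0.014). Of 20 interferon response genes 1 rose (Isg15, adjusted p = 0.13 without young replicate 1), of 24 genes of oxidative phosphorylation none changed, and of 15 senescence genes 1 rose, Cdkn2a, at 1.48 and 0.51 CPM in the young and 24.9 and 15.4 CPM in the aged libraries (adjusted p = 0.0066, and 0.058 in the fibroblast-poor members).

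Against Lyve1 Fcna macrophages of the same libraries, Lyve1-low macrophages had more of Ccr2, Lyz1 and MHC class II and less of the genes of resident macrophages. With the 10 rule genes and the 4 markers left out, 3739 of 11757 genes differed (31.8%), 2125 higher (18.1%) and 1614 lower (13.7%) here, in a fit with the library as a block. The classes were split on measured counts, so genes that go along with Lyve1 or Fcna in a cell differ by construction. Lyve1 Fcna macrophages were also deeper, with medians of 8065.5 to 11211 UMIs, and 10 or more fibroblast UMIs were found in 2.66% to 10.7% of them. Ccr2 stood at 338 to 569 CPM here and at 22.5 to 79.7 CPM there (log2 difference 3.46, SE 0.33, adjusted p = 7e-06). Lyz1 stood at 447 to 1880 against 19.6 to 37 CPM (log2 difference 5.13, SE 0.22, adjusted p = 1.3e-08). Ear2, an eosinophil-associated ribonuclease also made by monocytes, stood at 158 to 299 against 1.84 to 7.15 CPM (log2 difference 5.67, adjusted p = 1.3e-08). In each of these genes the lowest of the 4 libraries here lay above the highest there. The cytokine gene Il1b stood at 82.2 to 111 against 4.84 to 12.5 CPM, the signalling regulator Rgs1 at 80.2 to 166 against 5.05 to 10.1 and the survival gene Bcl2a1d at 38.6 to 79.7 against 2.09 to 5.16. Mmp12, macrophage elastase, and the mast cell protease gene Mcpt4 completed the 8 highest, with 28.5 to 215 and 1.16 to 230.2 CPM here, both spread widely over the libraries, and Mcpt4 overlapped with the 1.51 to 23.1 CPM of the other class. The mast cell and neutrophil list summed to 88.5 and 367 in the young and 65.3 and 120.4 in the aged libraries here, and its part in the result was not tested.

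MHC class II genes were higher here in 10 of 13 and lower in 1, with a median log2 difference of 1.52. Over all genes in this contrast 18.1% were higher and 13.7% lower, against which the list counts here can be held. Lists of other cell types moved with them. Of 11 dendritic cell genes 6 were higher and 3 lower here (median 1.45), of 9 T cell genes 5 were higher and none lower, and of 9 monocyte genes 4 were higher and 1 lower. All 10 fibroblast genes (median 1.18) and all 8 endothelial genes (median 1.41) were higher here. Their part in the class differences was not tested beyond the fibroblast-poor values. H2-Ab1 stood at 4633 to 5862 CPM here and at 1526 to 1744 in Lyve1 Fcna macrophages (log2 difference 1.72, SE 0.13, adjusted p = 1.5e-06). The 8 lowest genes here were Ednrb, Cd209d, Enpep, Timd4, Vsig4, C6, Cd209f and Cd209b. Ednrb, the endothelin B receptor, stood at 75.7 to 113 against 775 to 907 CPM (log2 difference -3.21, SE 0.11, adjusted p = 2e-09). Timd4 stood at 20.1 to 42.7 against 218 to 290.0 CPM and Folr2 at 464 to 673 against 2486 to 2682. For these 3 the 4 libraries of the 2 classes did not overlap. The Cd209f gene, which rose with age here, was at either age lower here than in Lyve1 Fcna macrophages, at 289.7, 498, 1481 and 1475 against 2495, 2762, 4620 and 4388 CPM. Of 14 resident and perivascular genes 13 were lower and none higher, and of 20 lysosome genes 15 were lower and 2 higher. In the fibroblast-poor cells 2772 of 10534 genes differed (26.3%; 14.2% higher and 12.2% lower), with log2 differences of 3.65 for Ccr2, 1.94 for H2-Ab1 and -3.06 for Ednrb.

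Against Cx3cr1 macrophages fewer genes differed, 1764 of 11757 (15%), with 929 higher (7.9%) and 835 lower (7.1%) here. Fn1 stood at 572 to 1856 CPM here and at 252 to 837 in Cx3cr1 macrophages (log2 difference 1.39, SE 0.17, adjusted p = 0.00036). Retnla stood at 4731 to 13504 against 1394 to 5563 CPM (log2 difference 1.89, SE 0.23, adjusted p = 0.00033), and Lpl at 817 to 1154 against 431 to 795 (log2 difference 0.64, adjusted p = 0.0013). Resident genes lay between the other 2 classes. Folr2 was higher here than in Cx3cr1 macrophages, which had 201 to 262 CPM (log2 difference 1.23, SE 0.11, adjusted p = 5.6e-05), and Ccl24, an eotaxin, stood at 283 to 483 against 94.9 to 140.2 CPM. Of 14 resident and perivascular genes 10 were higher and none lower. The fibroblast-poor cells gave 1181 of 10534 genes (11.2%), 5.95% higher and 5.26% lower here. Ccr2 did not pass (log2 difference -0.16, SE 0.30, adjusted p = 0.78), with 338 to 569 against 362 to 639 CPM, and its sign changed with the libraries used (0.14 without aged replicate 2).

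MHC class II was lower here than in Cx3cr1 macrophages in 8 of 13 genes and higher in none, against 7.1% and 7.9% of all genes. H2-Ab1 stood at 7007 to 11871 CPM in Cx3cr1 macrophages (log2 difference -0.77, adjusted p = 0.0023). The other lowest genes here were Cd72, an inhibitory lectin of B cells and macrophages, at 30.4 to 71.2 against 228 to 285 CPM, Lpcat2, Lilra5 and Tgfbr1, the type I receptor for TGF-beta, at 24.7 to 40.2 against 116 to 132 CPM. The 4 haemoglobin genes Hbb-bt, Hba-a2, Hba-a1 and Hbb-bs also ranked lowest, and Hbb-bs stood at 4.8, 1889, 0.555 and 1.97 CPM in the 4 Cx3cr1 sums, high in young replicate 2 alone. Without that library Hbb-bs had a log2 difference of 0.11 (adjusted p = 0.97). Of the 8 highest genes here 7 were tubule genes (Spp2, Keg1, Miox, Tmem27, Spink1, Slc34a1 and Fbp1), and the tubule list moved with them. Without young replicate 2 all but Keg1 lost their call (adjusted p = 0.067 to 0.13), and without young replicate 1 Miox, Tmem27, Spink1 and Slc34a1 did (adjusted p = 0.073 to 0.12). The eighth, the acute phase gene Saa3, stood at 35.6, 134, 411 and 36 CPM here, high in aged replicate 1.

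**Figure D5:**
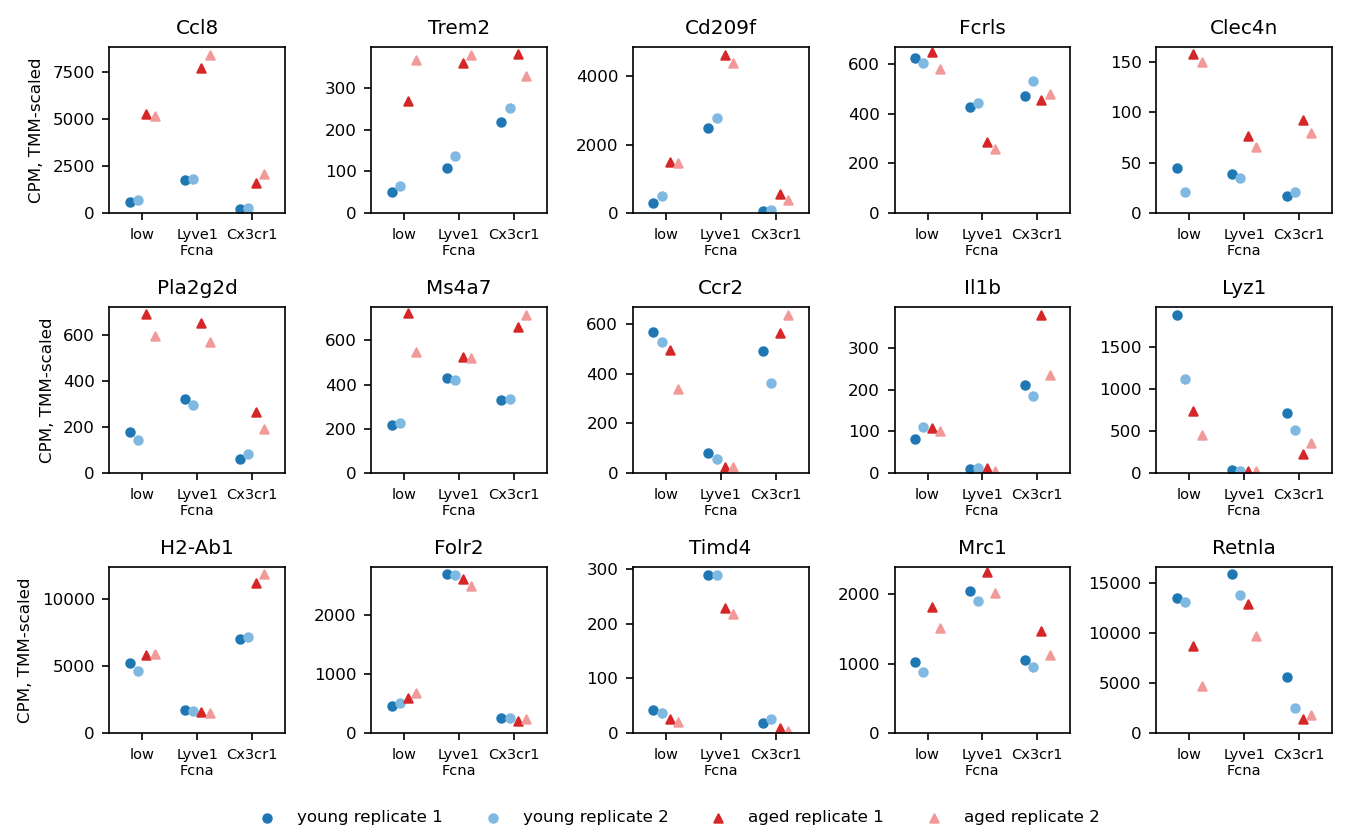
TMM-scaled CPM of 15 genes in Lyve1-low (low), Lyve1 Fcna and Cx3cr1 macrophages, with 1 point per library, circles for young and triangles for aged. Ccr2, Il1b, Lyz1 and H2-Ab1 are lowest in Lyve1 Fcna macrophages, Folr2 and Timd4 are highest there, and Ccl8 and Trem2 are higher in the aged libraries of all 3 classes.

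Ccl8 and Trem2 were higher in the aged libraries of all 3 classes. Ccl8 stood at 1756 and 1807 CPM in the young and 7728 and 8425 in the aged libraries of Lyve1 Fcna macrophages, and at 214 and 287 and 1586 and 2091 in Cx3cr1 macrophages. The age effect here exceeded that in Lyve1 Fcna macrophages by 0.92 on the log2 scale (SE 0.12, adjusted p = 0.00043), while the difference from Cx3cr1 macrophages was 0.21 (SE 0.13, adjusted p = 0.52). In fibroblast-poor cells the first difference was 1.01 (adjusted p = 0.089). The difference from Cx3cr1 macrophages changed sign when cells were thinned to 2000 UMIs before gating. Trem2 stood at 219 and 252 CPM in the young and 382 and 329 in the aged libraries of Cx3cr1 macrophages, against 51.3 and 65.3 and 270.0 and 368 here, so the young values were lowest here. Its age effect exceeded that of Cx3cr1 macrophages by 1.87 (SE 0.18, adjusted p = 4.5e-05), and by 1.69 in fibroblast-poor cells (adjusted p = 0.00085).

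In a test of the class by age interaction, the age effect differed from that of Lyve1 Fcna macrophages for 556 of 11757 genes (4.73%; 2.33% with a higher and 2.4% with a lower effect here). From that of Cx3cr1 macrophages it differed for 387 (3.29%; 1.37% higher and 1.92% lower). The fibroblast-poor cells gave 67 of 10534 (0.636%; 0.351% higher and 0.285% lower) and 18 (0.171%; 0.0665% higher and 0.104% lower). Slc40a1 shows the first kind, with 194, 191, 156 and 134 CPM in Lyve1 Fcna macrophages, where the aged libraries were lower, and 63.2, 55.4, 195 and 156 here, where they were higher (difference 1.97, SE 0.15, adjusted p = 7e-06). Mgl2 was lower in the aged libraries of both classes, but more so in Lyve1 Fcna macrophages, at 1112, 1107, 382 and 319 CPM against 747, 749.9, 525 and 538 here (difference 1.17, SE 0.12, adjusted p = 0.00011). MHC class II shows the second kind. H2-Ab1 stood at 7007 and 7155 CPM in the young and 11227 and 11871 in the aged libraries of Cx3cr1 macrophages, while here it stood at 5224 and 4633 and 5811 and 5862 (difference -0.46, SE 0.08, adjusted p = 0.0025). In the fibroblast-poor cells the difference was -0.75 (adjusted p = 0.00016), and without aged replicate 2 it was -0.40 (adjusted p = 0.1). The interactions use the same Lyve1-low sums as the age comparison, so they are not independent of it. Slc40a1, Mgl2, H2-Ab1 and Trem2 were added to the largest interactions, and passing in fibroblast-poor cells was required for them. Ccl8 was added without that requirement.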

How the data were processed

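Single-cell RNA-seq of whole renal capsules was analysed in 4 libraries, 2 young and 2 aged, grouped by the sample titles. The authors deposited raw UMI counts per gene and barcode, made with Cell Ranger on GRCm38. The version is 6.0.2 per the submitters' processing notes and 6.0.1 per the file headers. Nothing was normalized before deposit, and cells had no deposited annotation in the files used here.

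Barcodes were gated on raw counts by the rule that opens the results. No doublets were removed in the main analysis; removal with Scrublet (scanpy 1.11.5) was an alternative. Counts were summed per library and class and tested with edgeR 4.0.16 in R 4.3.3 (quasi-likelihood test, TMM, filterByExpr, Benjamini-Hochberg adjustment over all genes tested, adjusted p under 0.05). The age fit used the 4 Lyve1-low sums. The class contrasts and interactions used 12 sums with the library as a block, so CPM of the same gene differ slightly between the fits. The rule's genes and the given markers got no call. Totals of 1746829 to 2640758 UMIs stood behind the Lyve1-low sums. Replicates of an age differed beyond sampling noise (chi-square over degrees of freedom 3.53 and 3.65), so each library counted as 1 sample. Scripts were tested on simulated counts.

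The genes named for age were the 12 rising and 12 falling genes with the largest fold among those called, at 50 CPM or more, without overlap between ages and at least 2 times the stromal level. In each gene list up to 4 members with the smallest adjusted p were eligible. For each class contrast the 8 highest and 8 lowest called genes were named, and for each interaction the 6 largest. Other genes were added outside these rules, and the text does not mark each of them. In the class contrasts they included Fn1, Retnla, Lpl, Folr2, Ccl24 and H2-Ab1. Most genes added for the interactions had to pass in fibroblast-poor cells as well. Members, gene lists and rules were chosen with earlier results of these data known. Alternatives covered scaling, filter, DESeq2 1.42.0, depth, doublets, fibroblast UMIs, gate limits, the replicate number and each library left out. The limits of 10 fibroblast UMIs, of 12 C1q UMIs in the gene tests, of 2 fibroblast UMIs in the class tests and share, and of 2 fibroblast UMIs without young replicate 2 were chosen after seeing the data. Promoter stretches came from a RefSeq table on GRCm38.p6. Some genes are not reported here.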

Additional observations from a re-analysis of the deposited data

Results flagged for a closer look

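The age effect of the genes below differed between Lyve1-low macrophages and another class by the interaction test (edgeR, adjusted p under 0.05). Each value is the log2 age effect in Lyve1-low macrophages minus that in the other class.

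Against Lyve1 Fcna macrophages the difference was 1.97 for Slc40a1, 1.17 for Mgl2, 1.04 for Ier3 and 0.99 for Stab1, a scavenger receptor. It was 0.93 for Ms4a6b, 0.86 for Ninj1, 0.81 for Trf, which encodes transferrin, and 0.66 for Apoe. These 8 genes were added to the largest interactions. Passing in fibroblast-poor cells was required for adding them, so it is no further support. The interferon-induced chemokine Cxcl9 differed by 3.08. It stood at 85, 114, 797 and 138 CPM in the 4 Lyve1-low sums, high in aged replicate 1, and without that library the difference was 1.41 (adjusted p = 0.17). Without young replicate 1 it was 2.10 (adjusted p = 0.25). The tubule genes Spink1, Lrp2, Spp2, Kap and Slc34a1 differed by -2.70, -2.51, -2.46, -2.42 and -2.35. Kap lost its call without young replicate 1 (adjusted p = 0.099) and young replicate 2 (adjusted p = 0.23).

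Against Cx3cr1 macrophages the difference was 1.87 for Trem2, 1.06 for Stab1, 0.87 for Ier3, 0.71 for the transcription factor gene Irf8 and 0.63 for Ctsb. It was -0.82 for S100a4, -0.46 for H2-Ab1 and -0.43 for H2-Eb1. These 8 were added in the same way, with passing in fibroblast-poor cells required. Without aged replicate 2 the adjusted p was 0.1 for H2-Ab1, 0.1 for H2-Eb1 and 0.15 for S100a4. Without young replicate 2 it was 0.076 for S100a4 and 0.14 for Irf8, and without aged replicate 1 it was 0.08 for Irf8. The tubule genes Slc27a2, Spp2, Tmem27, Spink1, Lrp2 and Akr1c21 differed by -5.07, -4.86, -4.49, -4.36, -4.31 and -4.25. All 6 lost their call without aged replicate 2, and Slc27a2 and Spp2 also without young replicate 2 (adjusted p = 0.059 and 0.059). The tubule list in the members, with Gpx3 that stromal droplets also held, summed to 4785 and 9100 in the young and 389.8 and 1448 in the aged libraries in CPM. The part of this list in these values was not tested.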

How the results depend on the processing

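The 938 genes changed with age became 1597 with the replicate number as a block. Same-numbered libraries deviated together only weakly (correlation 0.26, with 2 pairs), so the numbers were not taken to pair them. The count was 623 with DESeq2, 2067 without a filter on low counts, 591 with cells thinned to 2000 UMIs, 555 with no Lyve1 or Fcna UMI, 308 with under 10 and 84 with under 2 fibroblast UMIs. Leaving out 1 library gave 399 to 1677. With under 2 fibroblast UMIs and without young replicate 2 it was 0 in edgeR, with 761 genes at an unadjusted p under 0.05. Of the 24 genes named for age, 13 were called with DESeq2, 10 with under 2 fibroblast UMIs and 0 without young replicate 2 as well. The causes were not tested. Thinning changed the 3739 genes that differed from Lyve1 Fcna macrophages to 2385. The 1764 that differed from Cx3cr1 macrophages became 744 to 1391 with 1 library left out.

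The 556 interactions with Lyve1 Fcna macrophages became 106 on thinned counts, 330 with under 10 and 67 with under 2 fibroblast UMIs, and 219 to 338 with 1 library left out. The 387 with Cx3cr1 macrophages became 604 without a filter, 37 on thinned counts, 211 and 18 with under 10 and under 2 fibroblast UMIs, and 89 to 254 with 1 library left out. Some single values turned sign. With under 2 fibroblast UMIs and without young replicate 2, the log2 age effects were 0.69 for Spp2, 0.0075 for Keg1, 0.69 for Slc5a2, 0.15 for Tmem27, 0.71 for Cyp2j5, 0.056 for Ugt2b38 and 0.22 for Fbp1, none of them called. Hspb1 was 0.18 with under 2 and 0.30 with under 10 fibroblast UMIs. H2-Aa was -0.026 on thinned counts, -0.20 with under 2 and -0.11 with under 10 fibroblast UMIs, and -0.15 with under 2 and without young replicate 2. Folr2 was -0.23, -0.085 and -0.17 on thinned counts, with under 2 fibroblast UMIs, and with under 2 and without young replicate 2. Against Cx3cr1 macrophages Ccr2 was 0.097 with under 2 and 0.0039 with under 10 fibroblast UMIs, and -0.36 to 0.14 with 1 library left out. Hbb-bs ran from -3.86 to 0.11 with 1 library left out. The difference in age effect of Ccl8 from Cx3cr1 macrophages was -0.75 on thinned counts. Among single values for age, 1305 kept their direction and side of the threshold, 342 lost their call, 23 gained one and 16 turned sign.

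The exact p of the share was 0.333 throughout, the smallest that 2 libraries per age allow. Where 1 aged library was left out, the other was assumed to vary like the young ones. The share was higher in both aged libraries under all 7 settings tried.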
